A study of Homo sapiens with 4 samples.

Results

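The 37 genes described here encode the steps that take glucose into the cell, split it to pyruvate and then send the pyruvate either out as lactate or into the mitochondrion. They were taken by symbol from a written list and all 37 were found among the 61806 genes of the expression table. JJ012 (human chondrosarcoma) and 143B (human osteosarcoma) cells were kept in suspension and either left untreated or given 1 mM melatonin for 72 h, with 1 library for each of the 4 conditions. Melatonin is the hormone of the pineal gland, and both lines are established tumor lines. RNA was selected by its poly(A) tail before sequencing, and expression was given as FPKM, the counts of a gene scaled to the length of its exons and to the total of the library. The comparisons were melatonin against control in each line, and the control of JJ012 against that of 143B.

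In glycolysis, glucose is phosphorylated by hexokinase, rearranged and phosphorylated again by phosphofructokinase, and cleaved by aldolase. The later reactions, from glyceraldehyde phosphate dehydrogenase to pyruvate kinase, return ATP. Pyruvate is then reduced to lactate, which leaves through monocarboxylate transporters, or is imported into mitochondria, where the pyruvate dehydrogenase complex turns it into acetyl-CoA. Pyruvate dehydrogenase kinases switch that complex off and its phosphatase switches it on. Many glycolytic genes are known targets of the hypoxia-inducible factors, which bind DNA at a short core motif, and tumor cells are known for high glycolytic flux.

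Totals were between 15889564 and 19218343 counts per library, so that 3 counts corresponded to 0.156 to 0.189 CPM, the counts scaled to the library total. The cartilage markers COL2A1, ACAN, COL9A1 and HAPLN1 stood at or near 0 FPKM in every library, and the bone markers SP7, IBSP and ALPL were below 0.4 FPKM, so the labelled tissue origin was not visible in these genes. In contrast, SOX9 was at 6.16 to 15.5 FPKM and RUNX2 at 2.59 to 4.28 FPKM. Of 4 endothelial markers, CDH5, VWF and KDR were at most at 0.31 FPKM, and PECAM1 was at 1.81 and 0.66 FPKM in JJ012 and at 2.40 and 2.04 FPKM in 143B. Of 5 leukocyte markers, PTPRC was at most at 0.14 FPKM, and CD3E was at 9.73 and 3.28 FPKM in JJ012. Of 5 epithelial markers, KRT18 (7.49 to 35.8 FPKM) and KRT8 (5.46 to 9.64 FPKM) were present in every library, and KRT19 was at 2.16 FPKM in the JJ012 control. Of the bone list, SPP1 (79.4 and 64.5 FPKM) and COL1A1 (10.9 and 0.77 FPKM) were also present in JJ012. Mitochondrially encoded genes took between 1.63% and 6.78% of the counts. The part of these genes in the differences that follow was not tested.

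The 37 genes together took 2.80% of all counts in the JJ012 control (exact 95% interval 2.80% to 2.81%) and 1.61% after melatonin (1.60% to 1.62%). In 143B they took 3.14% in the control (3.13% to 3.14%) and 3.07% after melatonin (3.06% to 3.08%). The share was therefore lower after melatonin in JJ012 and nearly level in 143B. This sum is weighted by the most abundant genes. Of 538865 counts in the JJ012 control, GAPDH held 118895, ENO1 101541, PGK1 65405, LDHA 60375 and PKM 45922. After melatonin, of 259920 counts, they held 31957, 38775, 22252, 25630 and 22989. The share does not describe each gene, as 6 of the 36 genes tested in JJ012 were higher and 13 lower. All intervals in the text are exact (Clopper-Pearson) or built from the counts. They cover counting error only, PCR copies are not independent molecules, and no difference could be set against the spread between cultures. In bulk RNA, a change in the number of cells that express a gene and a change in RNA per cell cannot be told apart.

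**Figure D1:**
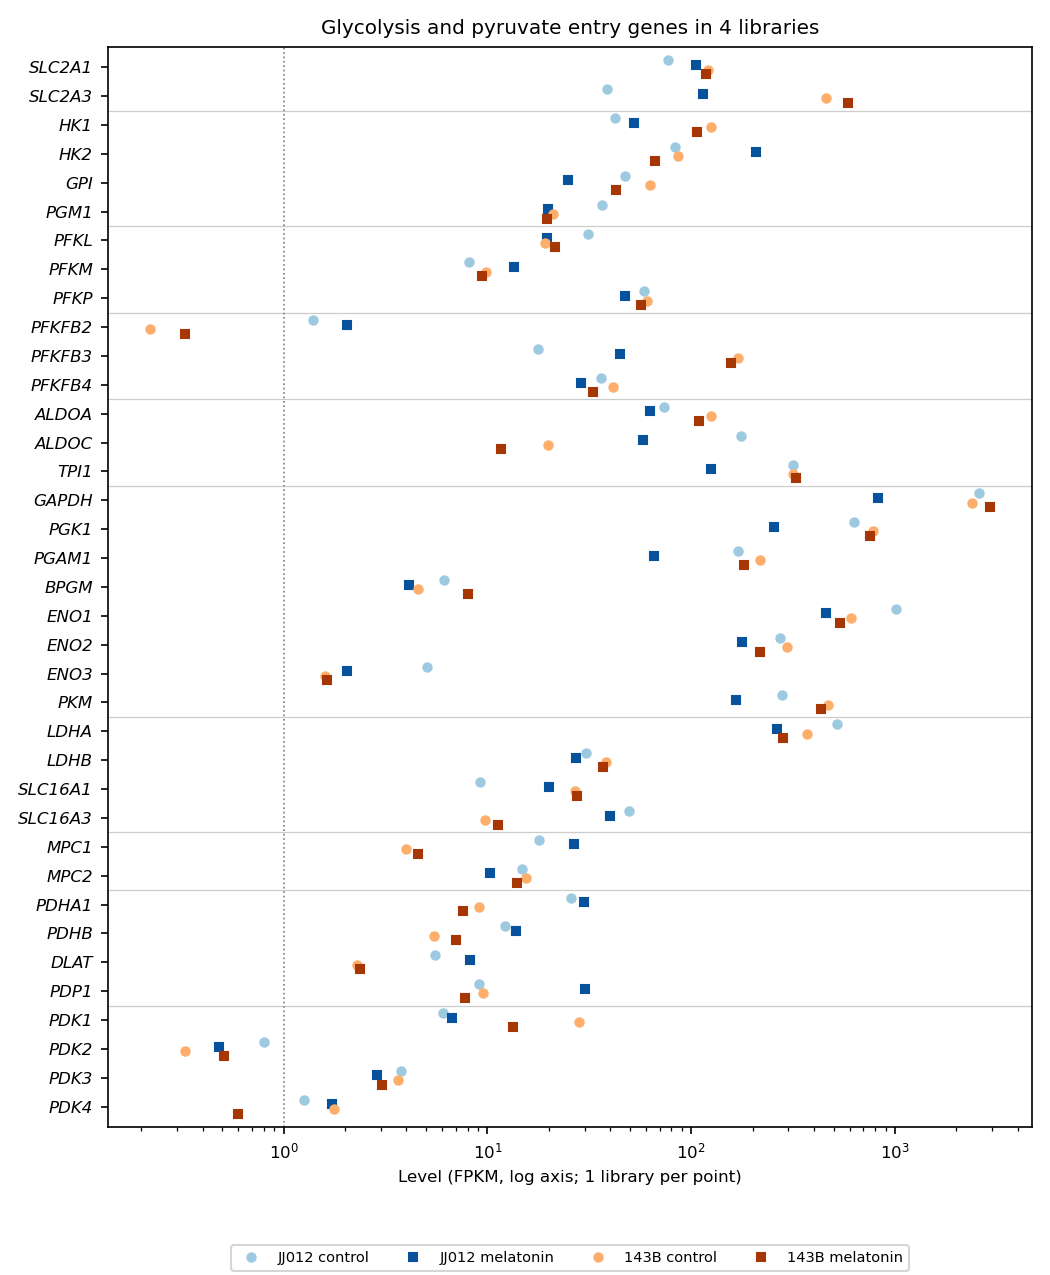
FPKM of the 37 genes (log axis) in the 4 libraries, with 1 point per library and the genes in the order of the pathway. GAPDH stands highest in every library (826 to 2925 FPKM), and in JJ012 the points of the later glycolytic steps lie lower after melatonin.

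A gene was tested where it reached 1 FPKM in at least 1 of the libraries compared, and was counted as higher or lower where its log2 fold change, with 1 FPKM added to each level, was at least 0.58 in size. No p-value stands behind these counts. In JJ012, 36 of the 37 genes were tested, of which 6 were higher after melatonin, 13 were lower and 17 lay within the threshold. Over all 15794 tested genes of JJ012, 19.6% were higher and 18.6% were lower. The median log2 fold change of the 36 genes was -0.30, against 0.01 over all tested genes. In 143B, 35 genes were tested, of which 1 was higher and 3 were lower. Over all 14135 tested genes of 143B, 6.09% were higher and 6.65% were lower, and the medians were -0.12 for the 35 genes and 0.03 for all. The 6 genes that were higher in JJ012 were SLC2A3, HK2, PFKM, PFKFB3, SLC16A1 and PDP1, and all of these lay within the threshold in 143B. Of the 13 lower genes, only ALDOC was also lower in 143B.

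Rescaling to TPM, in which the length-corrected values of every library have the same sum, changed the split in JJ012. It moved the median of all tested genes by 0.20 on the log2 scale, to 0.21, and put 12 of the glycolysis and pyruvate entry genes as higher and 10 as lower, where 33.0% of all tested genes were higher and 19.9% were lower. SLC2A1 (0.73), HK1 (0.60), PFKFB2 (0.73), MPC1 (0.83), DLAT (0.82) and PDK4 (0.62) were then higher as well. ENO2 (-0.35), PFKL (-0.40) and PKM (-0.47) then lay within the threshold, and GPI joined the lower genes of 143B. Log2 fold changes in JJ012 also increased with exonic length across genes, with a running median of -0.26 at the length of GAPDH and 0.36 at that of PDK3. After subtraction of that trend, 6 genes were higher and 14 were lower, where 18.1% and 16.4% of all tested genes were. PFKM then lay within the threshold (0.49), MPC1 was higher (0.88) and PDK3 was lower (-0.66).

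**Figure D2:**
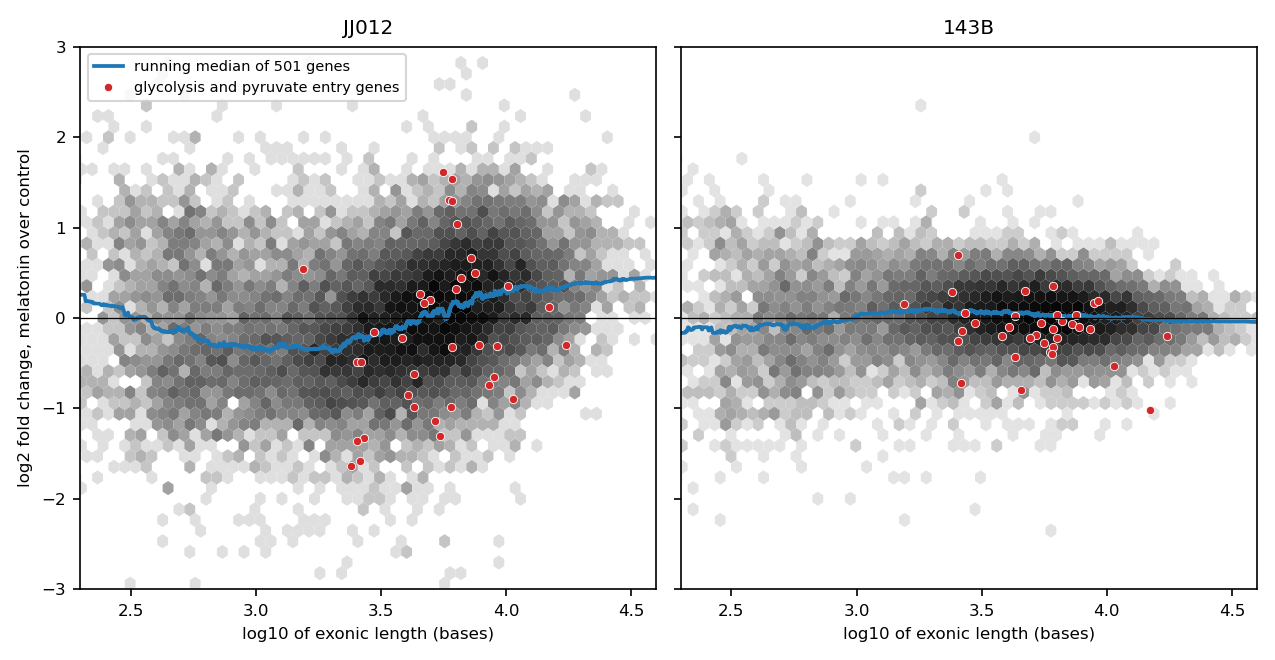
Log2 fold change (FPKM plus 1) after melatonin against exonic length (log10 of bases) in JJ012 and 143B, with all tested genes as grey hexagons that darken with the number of genes, their running median in blue and the glycolysis and pyruvate entry genes in red. The blue line rises with length in JJ012 over most of the range and stays close to 0 in 143B, and the lowest red points of JJ012 lie well under it. The vertical axis ends at -3 and 3.

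Hypoxia-inducible factors bind the core words ACGTG and GCGTG. The 250 bases before the start are shown for the 3 genes with the lowest log2 fold change in JJ012 among those whose promoter holds either word, and for PDHB, which held them with the smallest change. Promoters were available from RefSeq (GRCh38.p14) for 33 of the 37 genes. There was no entry for SLC2A3, PFKFB2, SLC16A1 and PDP1. The words ACGTG or GCGTG were present on either strand in 19 of the 33 promoters (57.6%) and in 43.1% of all 27305 promoters of the same length. The word CACGTG, the E-box of MYC and USF proteins, overlaps ACGTG and was present in 4 of the 33 (12.1%) and in 6.49% of all promoters. Matches to ACGTG or GCGTG were present in 9 of 13 genes that were lower in JJ012 (69.2%), in 8 of 16 within the threshold and in 2 of 3 that were higher (66.7%). In the sequences, given 5′ to 3′ in the direction of the gene, capitals mark these matches. They are of GAPDH (chr12:6535014-6535263, plus strand), ALDOC (chr17:28576896-28577145, minus strand), PGK1 (chrX:78103998-78104247, plus strand) and PDHB (chr3:58433833-58434082, minus strand).
GAPDH: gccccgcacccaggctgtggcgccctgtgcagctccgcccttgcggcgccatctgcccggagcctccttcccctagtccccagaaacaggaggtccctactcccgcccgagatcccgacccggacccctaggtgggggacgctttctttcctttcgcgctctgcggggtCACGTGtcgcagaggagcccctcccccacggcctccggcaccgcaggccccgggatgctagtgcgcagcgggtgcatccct
ALDOC: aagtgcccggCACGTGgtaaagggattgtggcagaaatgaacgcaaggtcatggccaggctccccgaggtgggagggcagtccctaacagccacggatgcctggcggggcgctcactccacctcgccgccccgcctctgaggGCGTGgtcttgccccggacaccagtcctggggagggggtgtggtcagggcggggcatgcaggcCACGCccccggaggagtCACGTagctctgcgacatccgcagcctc
PGK1: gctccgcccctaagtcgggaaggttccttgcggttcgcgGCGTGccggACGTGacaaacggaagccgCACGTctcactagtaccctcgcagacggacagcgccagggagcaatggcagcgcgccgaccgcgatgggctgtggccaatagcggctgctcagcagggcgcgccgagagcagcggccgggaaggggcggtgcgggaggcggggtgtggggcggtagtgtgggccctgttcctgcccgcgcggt
PDHB: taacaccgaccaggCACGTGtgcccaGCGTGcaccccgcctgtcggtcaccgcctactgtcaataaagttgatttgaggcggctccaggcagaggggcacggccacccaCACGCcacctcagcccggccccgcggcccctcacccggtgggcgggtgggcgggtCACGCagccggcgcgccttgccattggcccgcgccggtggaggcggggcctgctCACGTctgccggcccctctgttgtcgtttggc
The GAPDH promoter held a CACGTG, which counts once on each strand, beginning 81 bases before the start. ALDOC held 5 matches and PGK1 held 3, whereas PDHB, with a log2 fold change of only 0.16 in JJ012, held 6. The matches of ALDOC and of PDHB likewise each include 1 CACGTG that counts on both strands. A match is a description of the letters and not evidence of binding.

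Among the glucose transporters, SLC2A3 (GLUT3, a high-affinity transporter) was higher in JJ012 after melatonin and the basal transporter SLC2A1 was past the threshold under TPM only. The level of SLC2A3 was 38.7 FPKM in the JJ012 control, 114 FPKM after melatonin, 461 FPKM in untreated 143B and 590 FPKM in treated 143B. The CPM ratio was 2.95 in JJ012 (log2 1.56, 95% interval 1.51 to 1.61) and 1.28 in 143B (log2 0.36, 0.34 to 0.37). The level thus stayed far higher in 143B than in JJ012 on either side of the treatment. SLC2A1 (GLUT1, the widely expressed basal transporter) was at 76.9 and 105 FPKM in JJ012 and at 120 and 118 FPKM in 143B, within the threshold in both lines on the FPKM scale. The ratio of SLC2A3 to SLC2A1 per length, which does not depend on how libraries are scaled, went from 0.504 to 1.09 in JJ012, 2.16 times the control value (2.06 to 2.26). In 143B it went from 3.83 to 5.01, 1.31 times the control value (1.27 to 1.34). The table also lists SLC2A14, a near-identical relative of SLC2A3, at no more than 0.84 FPKM.

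Of the hexokinases, which phosphorylate glucose on entry, HK2 (the inducible form) was higher in JJ012 after melatonin and HK1 (the constitutive form) was past the threshold under TPM only. HK2 was at 83.2 FPKM in the JJ012 control and 208 FPKM after melatonin, a log2 CPM ratio of 1.32 (1.29 to 1.36). In 143B it was at 85.8 and 66.1 FPKM, a log2 ratio of -0.38 (-0.42 to -0.33), so that the lines had similar control levels and ratios on opposite sides of 0. HK1 was at 42.1 and 52.6 FPKM in JJ012 and at 125 and 107 FPKM in 143B. HK2 made up 66.4% of the summed FPKM of HK1 and HK2 in the JJ012 control, 79.8% after melatonin, 40.8% in untreated 143B and 38.2% in treated 143B. The ratio of HK2 to HK1 after melatonin was 1.99 times that of the control in JJ012 (1.91 to 2.09) and 0.90 times in 143B (0.86 to 0.94). Downstream of hexokinase, GPI, which isomerizes glucose phosphate to fructose phosphate, was at 47.3 and 24.9 FPKM in JJ012 and at 62.5 and 42.8 FPKM in 143B. PGM1, which links glycogen to the pathway, was at 36.5 and 19.8 FPKM in JJ012 and at 21.0 and 19.6 FPKM in 143B. Both were lower in JJ012, with log2 fold changes of -0.90 and -0.85, and within the threshold in 143B, where GPI at -0.54 lay just inside. ITGB3BP overlaps PGM1 on the other strand with 24.9% of its counts.

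The phosphofructokinase subunits, which form the main control point of the pathway, differed in direction in JJ012. PFKP (platelet type) was at 58.6 and 47.4 FPKM in JJ012 and at 61.0 and 56.9 FPKM in 143B. PFKL (liver type) was at 31.2 and 19.5 FPKM in JJ012 and at 19.1 and 21.5 FPKM in 143B. PFKM (muscle type) was at 8.09 and 13.5 FPKM in JJ012 and at 9.87 and 9.42 FPKM in 143B. Thus PFKL was lower in JJ012 (log2 fold change -0.65), PFKM was higher (0.67) and PFKP lay between them (-0.30). PFKL was within the threshold under TPM and TMM scaling, and PFKM without the length trend. The ratio of PFKM to PFKL after melatonin was 2.66 times that of the control in JJ012 (2.43 to 2.91), whereas the summed FPKM of the 3 genes went only from 97.9 to 80.4. SENP1, which lies on the other strand and overlaps PFKM, had counts equal to 26.0% of those of PFKM, and with the strand setting of the counting unknown the reads of such a pair cannot be told apart.

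The PFKFB enzymes make and degrade the allosteric activator of phosphofructokinase, and PFKFB3 is the form with the strongest kinase activity. PFKFB3 was at 17.8 FPKM in the JJ012 control and 45.0 FPKM after melatonin, a CPM ratio of 2.53 (log2 1.34, 1.26 to 1.41). In 143B it was at 171 and 157 FPKM, with a log2 fold change of -0.12. PFKFB4 was at 36.0 and 28.7 FPKM in JJ012 and at 41.5 and 33.0 FPKM in 143B, with log2 fold changes of -0.32 in each line. The leading form in JJ012 differed between the libraries, as PFKFB4 made up 65.2% of the family FPKM in the control and 37.9% after melatonin, and PFKFB3 32.2% and 59.4%. In 143B, PFKFB3 made up 80.4% and 82.5%. PFKFB2 was low, at 1.39 and 2.05 FPKM in JJ012 and at 0.22 and 0.33 FPKM in 143B, where it was not tested. YOD1 overlaps PFKFB2 on the other strand with several times its counts.

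**Figure D3:**
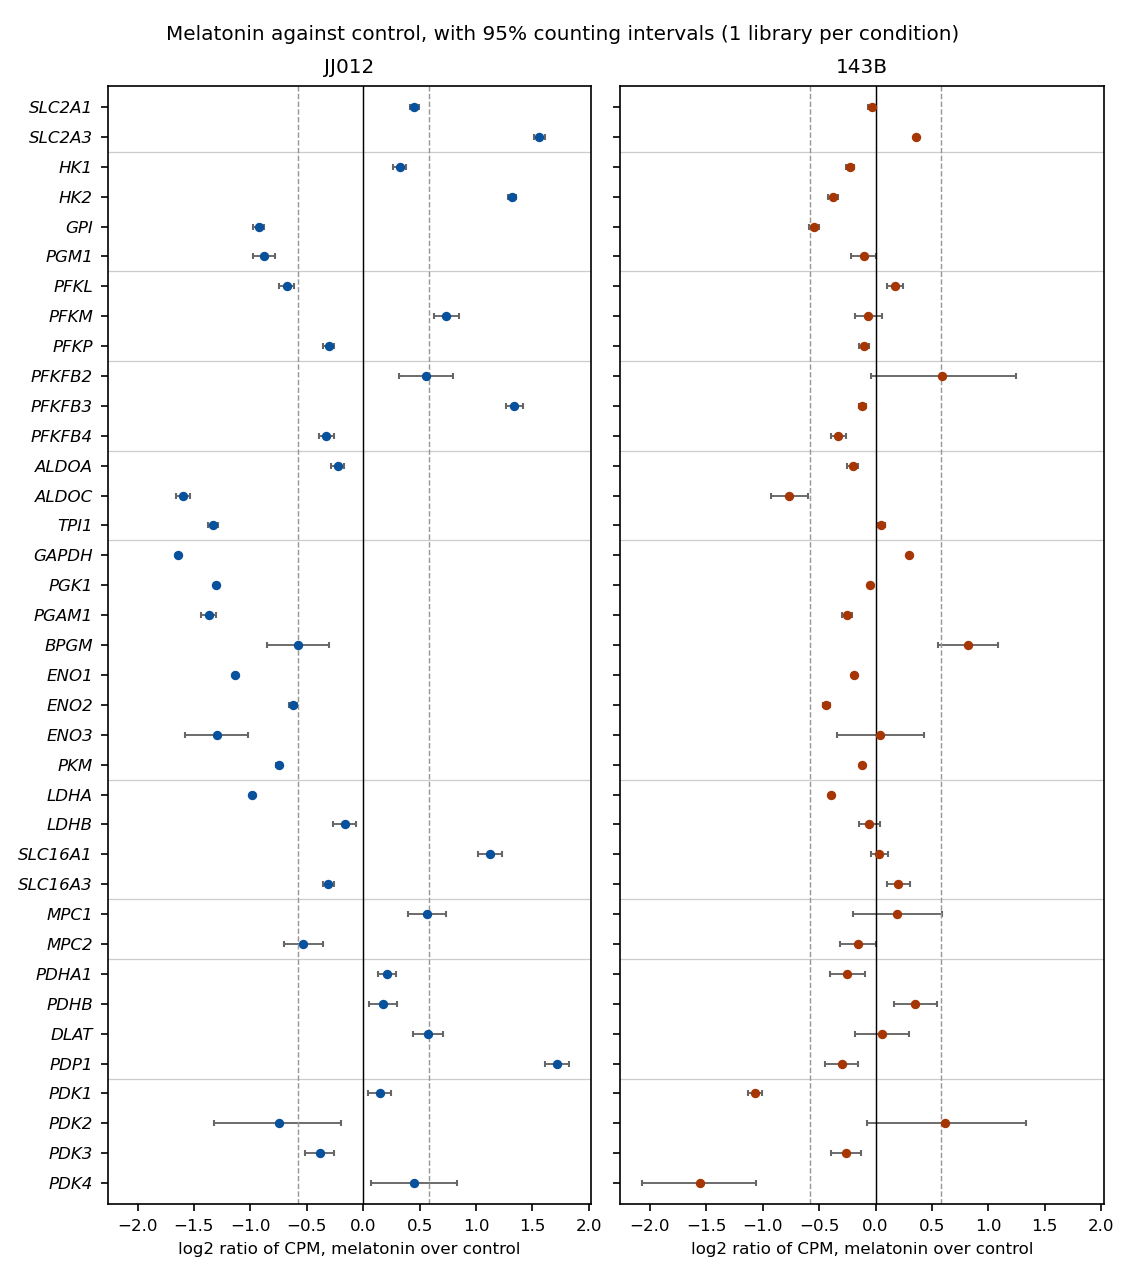
Log2 ratio of CPM, melatonin over control, for the 37 genes in JJ012 and 143B, with 95% counting intervals as bars, a solid line at 0 and dashed lines at the threshold of 0.58. PDP1, SLC2A3, HK2, PFKFB3 and SLC16A1 stand to the right in JJ012 and GAPDH and ALDOC farthest to the left, while in 143B most points lie between the dashed lines.

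Aldolase and triose phosphate isomerase cleave and equalize the triose phosphates. ALDOC (the brain-type aldolase) was at 175 FPKM in the JJ012 control, 57.8 FPKM after melatonin, 19.8 FPKM in untreated 143B and 11.6 FPKM in treated 143B. It was lower in both lines, 3.03 times in JJ012 (log2 ratio -1.60, -1.66 to -1.53) and 1.70 times in 143B (-0.76, -0.92 to -0.60). ALDOA (the muscle-type and most widespread aldolase) was at 73.6 and 62.9 FPKM in JJ012 and at 125 and 109 FPKM in 143B, within the threshold in both. The ratio of ALDOC to ALDOA went from 2.37 to 0.919 in JJ012, so the more abundant aldolase changed from ALDOC to ALDOA. In 143B, where ALDOA led throughout, it went from 0.158 to 0.107. TPI1 was at 315 and 125 FPKM in JJ012, 2.52 times lower after melatonin, and at 317 and 328 FPKM in 143B. The control levels of TPI1 in the lines were thus nearly equal, and the treated level was lower in JJ012 only.

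The later reactions held the most abundant genes of the pathway and the lowest log2 fold change in JJ012. GAPDH, which oxidizes glyceraldehyde phosphate, was at 2582 FPKM in the JJ012 control, 826 FPKM after melatonin, 2389 FPKM in untreated 143B and 2925 FPKM in treated 143B. It was 3.13 times lower in JJ012 (log2 ratio -1.64, -1.66 to -1.63) and 1.22 times higher in 143B, within the threshold (0.29, 0.28 to 0.30). Its rank by FPKM among all genes went from 9 to 17 in JJ012 and from 2 to 3 in 143B. The 65 named GAPDH pseudogenes in the table together held 0.248% of the GAPDH counts. PGK1, the first ATP-yielding kinase, was at 626 and 254 FPKM in JJ012 (2.47 times lower) and at 778 and 751 FPKM in 143B. PGAM1, which moves the phosphate of phosphoglycerate, was at 171 and 65.9 FPKM in JJ012 (2.59 times lower) and at 217 and 182 FPKM in 143B. Of the 8 genes from GAPDH to PKM, 7 were lower in JJ012, where 18.6% of all tested genes were. The median log2 fold change of the 8 was -1.06, against 0.01 over all tested genes. In 143B, 1 was higher and 0 were lower, where 6.09% and 6.65% of all tested genes were. The medians there were -0.09 for the 8 and 0.03 for all. Under TPM, ENO2 and PKM left the lower group of JJ012.

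The enolases, which make phosphoenolpyruvate, were all lower in JJ012, although ENO2 was not past the threshold under TPM or TMM scaling. ENO1 (the ubiquitous form) was at 1013 and 460 FPKM in JJ012, with a log2 fold change of -1.14, and at 611 and 536 FPKM in 143B. ENO2 (the neuronal form) was at 274 and 178 FPKM in JJ012, 1.54 times lower, and at 296 and 218 FPKM in 143B. The ratio of ENO2 to ENO1 was 0.270 and 0.386 in JJ012 and 0.483 and 0.408 in 143B, so the ratio was higher after melatonin in JJ012 and lower in 143B. ENO3 (the muscle form) was at 5.03 and 2.05 FPKM in JJ012 and at 1.60 and 1.64 FPKM in 143B, but PFN1 on the other strand overlaps it with far more counts. PKM (pyruvate kinase) was at 279 and 166 FPKM in JJ012, 1.68 times lower, and at 470 and 432 FPKM in 143B. BPGM, which makes bisphosphoglycerate in a side branch, had ratios on opposite sides of 0 in the lines. It was at 6.15 and 4.12 FPKM in JJ012 (log2 ratio -0.58, -0.86 to -0.30) and at 4.56 and 8.03 FPKM in 143B (0.82, 0.56 to 1.08), and was the only higher gene of 143B. These levels rest on 169 to 350 counts.

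**Figure D4:**
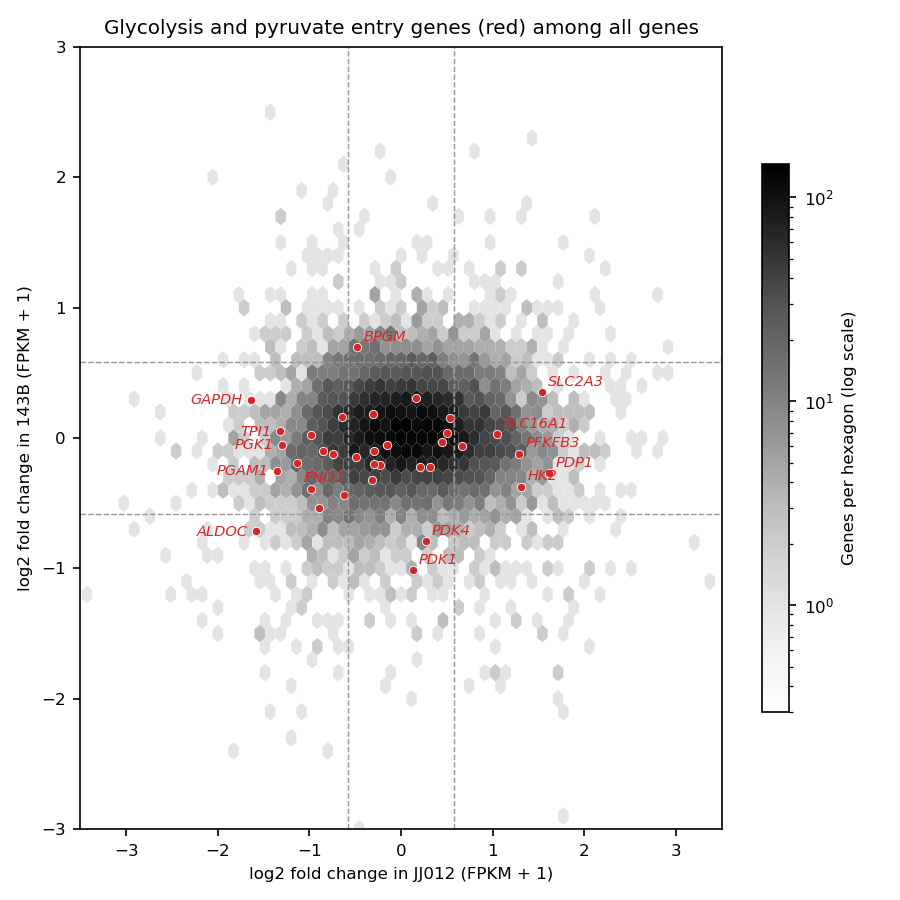
Log2 fold change (FPKM plus 1) after melatonin in JJ012 (horizontal) against 143B (vertical), with the 11822 genes tested in both lines as hexagons shaded by number (log scale, 6 genes lie beyond the axes), the glycolysis and pyruvate entry genes in red and the threshold of 0.58 as dashed lines. The red points spread widely along the JJ012 axis and stay mostly between the dashed lines of 143B, with ALDOC lower in both lines.

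At the lactate branch, LDHA (the form that favors lactate production) was lower in JJ012 and LDHB stayed within the threshold. LDHA was at 520 and 263 FPKM in JJ012, 1.98 times lower, and at 372 and 283 FPKM in 143B, 1.31 times lower and within the threshold. LDHB was at 30.4 and 27.1 FPKM in JJ012 and at 38.2 and 36.8 FPKM in 143B. The ratio of LDHA to LDHB went from 17.1 to 9.69 in JJ012 and from 9.72 to 7.68 in 143B, which is 0.566 (0.526 to 0.610) and 0.790 (0.739 to 0.845) times the control value. Lactate leaves the cell through SLC16A3 (MCT4, the main exporter of glycolytic cells) and SLC16A1 (MCT1, which carries lactate both ways). SLC16A1 was at 9.17 and 20.0 FPKM in JJ012, a CPM ratio of 2.18 (log2 1.12, 1.02 to 1.23), and at 27.0 and 27.6 FPKM in 143B. SLC16A3 was at 49.3 and 39.8 FPKM in JJ012 and at 9.78 and 11.3 FPKM in 143B. The summed FPKM of the pair was nearly level in JJ012 (58.5 and 59.7), and the share of SLC16A1 went from 15.7% to 33.4%. SLC16A1-AS1 overlaps SLC16A1 on the other strand with 12.0% of its counts and CSNK1D overlaps SLC16A3 with 114% of its counts.

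Pyruvate enters mitochondria through a carrier of MPC1 and MPC2. MPC1 was at 17.9 and 26.5 FPKM in JJ012 and at 3.99 and 4.56 FPKM in 143B. MPC2 was at 14.8 and 10.3 FPKM in JJ012 and at 15.5 and 13.9 FPKM in 143B. Both lay within the threshold, MPC1 at 0.54 just inside it in JJ012, and the ratio of MPC1 to MPC2 after melatonin was 2.14 times that of the control in JJ012 (1.81 to 2.53). In 143B it was 1.27 times, with an interval (0.943 to 1.71) that included 1. DCAF6 overlaps MPC2 on the other strand with 234% of its counts.

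In the pyruvate dehydrogenase step, the phosphatase PDP1, which activates the complex, was higher in JJ012 and the kinase PDK1, which inactivates it, was lower in 143B. PDP1 was at 9.12 and 30.0 FPKM in JJ012, 3.29 times higher after melatonin (log2 ratio 1.72, 1.61 to 1.83). In 143B it was at 9.55 and 7.74 FPKM (-0.30, -0.45 to -0.16), so the control levels were alike and the treated levels were not. PDK1 was at 6.06 and 6.70 FPKM in JJ012 and at 28.1 and 13.4 FPKM in 143B, 2.10 times lower there (-1.07, -1.13 to -1.01). The ratio of PDK1 to PDP1 was lower after melatonin in both lines, going from 0.665 to 0.223 in JJ012 and from 2.95 to 1.73 in 143B. The subunits PDHA1, PDHB and DLAT lay within the threshold in both lines, except DLAT in JJ012 under TPM. The catalytic PDHA1 was at 25.6 and 29.6 FPKM in JJ012 and at 9.07 and 7.63 FPKM in 143B. PDHB, its partner, was at 12.2 and 13.8 FPKM in JJ012 and at 5.48 and 7.0 FPKM in 143B. The acetyltransferase subunit DLAT was at 5.51 and 8.20 FPKM in JJ012 (log2 fold change 0.50) and at 2.29 and 2.38 FPKM in 143B. MAP3K15 overlaps PDHA1 on the other strand with 15.0% of its counts.

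The remaining kinases were expressed at lower levels. PDK3 was at 3.75 and 2.87 FPKM in JJ012 and at 3.66 and 3.05 FPKM in 143B. PDK4, which is induced by fasting, was at 1.26 and 1.72 FPKM in JJ012 and at 1.77 and 0.60 FPKM in 143B. In 143B it was 2.94 times lower, from 128 to 47 counts (log2 ratio -1.56, -2.07 to -1.06). PDK2 stayed below 1 FPKM in all libraries (0.33 to 0.80) and was not tested, and SAMD14 overlaps it on the other strand with 119% of its counts. The summed FPKM of the PDK genes was 11.9 and 11.8 in JJ012 and 33.9 and 17.6 in 143B, so most of the difference in 143B was that of PDK1.

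**Figure D5:**
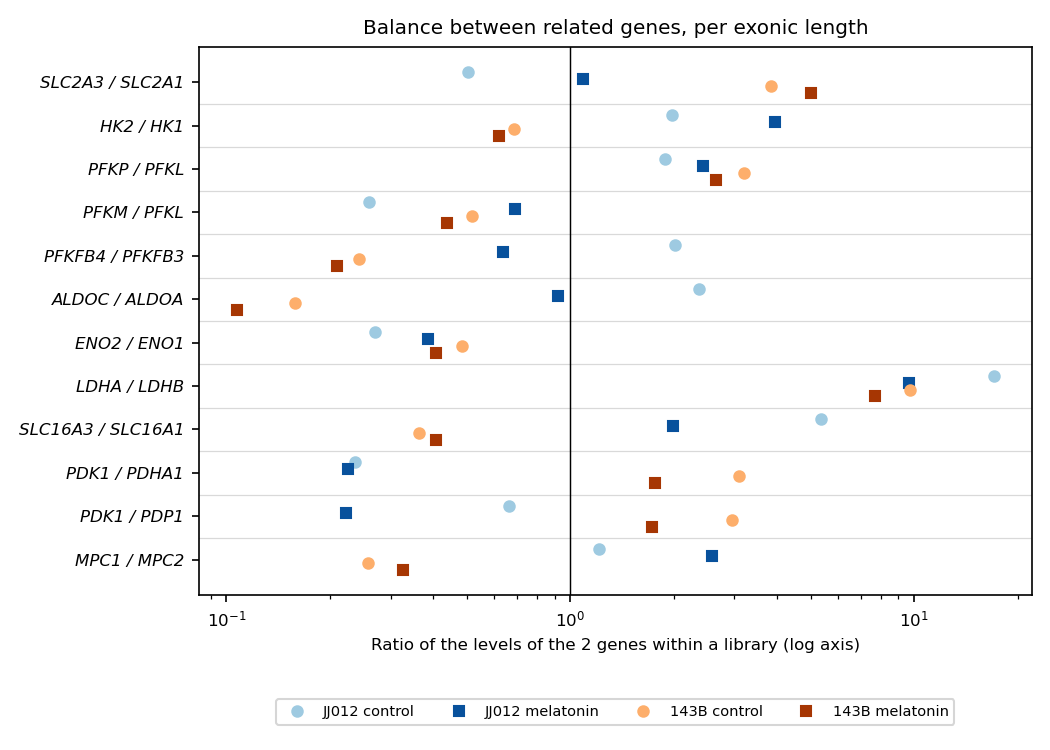
Ratio of the FPKM of 2 related genes within each library (log axis) for 12 pairs, with circles for controls, squares for melatonin and a line at 1. In JJ012, ALDOC/ALDOA and PFKFB4/PFKFB3 cross from above 1 to below it after melatonin and SLC2A3/SLC2A1 crosses from below 1 to above it, and no such crossing is seen in 143B.

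The difference between the lines was computed for each gene as the log2 CPM ratio of JJ012 minus that of 143B, from 4 counts. Of the 35 genes tested in both lines, 8 had a ratio higher in JJ012 by at least 0.58 and 12 had one lower by as much, where 25.1% and 23.1% of 11642 genes did. In 9 of the 35 and in 10.3% of the 11642, the counting intervals lay on opposite sides of 0 in the lines and at least 1 line was past the threshold. The counting interval included 0 for 6 of the 35, and the difference has no replicate check. At one end stood PDP1 (2.02, 1.85 to 2.20), PDK4 (2.00, on 47 to 128 counts), HK2 (1.70, 1.64 to 1.76), PFKFB3 (1.46, 1.38 to 1.54), PDK1 (1.21, 1.10 to 1.33) and SLC2A3 (1.21, 1.15 to 1.26). At the other stood GAPDH (-1.94, -1.96 to -1.91), TPI1 (-1.39, -1.44 to -1.33), BPGM (-1.39), ENO3 (-1.34), PGK1 (-1.25) and PGAM1 (-1.12). PFKFB4 (0.00, -0.09 to 0.10) and ALDOA (-0.02, -0.10 to 0.05) had near-identical ratios in the lines. Under TPM, 13 of the 35 were higher and 7 were lower, where 38.0% and 12.3% of all genes tested in both were.

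The untreated lines differed among these genes before any melatonin. These comparisons share the control libraries with the ones above and are given side by side only. Of 36 tested genes, 11 were higher in JJ012 and 8 were lower, where 41.3% of all 16929 tested genes were higher and 27.4% were lower. Under TPM the split was 9 higher and 15 lower, where 38.4% and 36.5% of all genes were. The median log2 difference was -0.06 for the 36 genes and 0.29 for all tested genes. ALDOC was 8.85 times higher in JJ012, SLC16A3 5.04 times and MPC1 4.49 times, and PDHA1, PDHB and DLAT were all higher, with log2 differences of 1.40, 1.03 and 0.99. SLC2A3 was 11.9 times lower in JJ012, PFKFB3 9.58 times, PDK1 4.64 times, HK1 2.97 times and SLC16A1 2.94 times. PDHX, a further subunit of the complex outside the 37 genes, was level between the controls (9.40 and 9.12 FPKM). DLD, another such subunit, was higher in the JJ012 control (16.96 and 6.85 FPKM, log2 difference 1.19).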

How the data were processed

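RNA of JJ012 and 143B cells in suspension, each with and without 1 mM melatonin for 72 h, was measured in 1 poly(A) library per condition. For each gene, the table deposited by the authors held its raw count in each library, its exonic length and its FPKM. The submitters' processing notes name cutadapt 1.9.1, HISAT2 2.2.1, HTSeq 0.6.1, DESeq2 and hg38. The strand setting and the annotation release are not given in the sources used here. All 247224 deposited FPKM values equalled counts divided by exonic length and library total within 0.0051. Library columns were matched by cell line, the suffix T was read as treated, and 0 columns of per-sample values were left unused.

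Log2 fold changes were computed on log2(FPKM + 1) for genes that reached 1 FPKM in either library of a comparison, at a threshold of 0.58 in size, which understates the change of low genes. CPM ratios were given exact 95% (Clopper-Pearson) intervals. The interval of a difference between lines used a normal approximation from the counts, and ratios of related genes an exact conditional odds ratio. With 1 library per condition no p-value was computed, and edgeR's quasi-likelihood test, which needs replicates, was not used. edgeR 4.0.16 and DESeq2 1.42.0 in R 4.3.3 supplied TMM and size factors only. The length trend was the running median of the log2 fold change over genes sorted by exonic length. Overlapping genes were counted from the deposited positions. Other computations used Python 3.11.15, pandas 2.3.3, matplotlib 3.10.9, scipy 1.17.1 and numpy 2.4.6.

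All 37 genes are named. Genes of other lists are named where they pass the threshold, reach 5 FPKM and are among the 3 largest changes of a list in a line. Some genes of this rule are not reported here. The printed promoters are those of the 3 genes with the lowest log2 fold change in JJ012 among those with a match, plus the gene with the smallest change that has one. The genes and lists were chosen with earlier results of these data known. A list of 8 reference genes and the alternatives for the difference between lines were chosen after seeing the data. The steps were tested on simulated counts with 200 changed genes. Of the 190 that passed the filter in JJ012, 96.8% were recovered, and of the 192 in 143B, 93.8%, while counting noise alone put 3.13% and 3.38% of unchanged genes past the threshold. Alternatives were pseudocounts, filters, scalings, removal of the length trend and a threshold of 1.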

Additional observations from a re-analysis of the deposited data

Results flagged for a closer look

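In 9 of the 35 genes tested in both lines, against 10.3% of all genes tested in both, at least 1 line was past the threshold and the counting intervals of the CPM ratios lay on opposite sides of 0 in the 2 lines. With 1 library per condition these differences between the lines were not tested. As the log2 CPM ratio of JJ012 minus that of 143B, they were 1.70 for HK2, 1.46 for PFKFB3, 2.02 for PDP1, 1.21 for PDK1 and 2.00 for PDK4, and -0.85 for PFKL, -1.39 for TPI1, -1.94 for GAPDH and -1.39 for BPGM. PDK4 and BPGM rest on low counts. For TPI1 the log2 ratio in 143B was only 0.05 (0.02 to 0.08), and its log2 fold change there was -0.03 without the length trend. For PDK1 the log2 ratio in JJ012 was only 0.145 (0.046 to 0.244). Its log2 fold change in JJ012 was -0.196 without the length trend, the same sign as in 143B. PFKL lay within the threshold in both lines under TPM and under TMM scaling.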

How the results depend on the processing

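No gene past the threshold in the reported setting changed sign under any alternative run. GAPDH, at 0.11 in the control comparison, was at -0.61 without the length trend. With TPM, the number of higher genes in JJ012 was 12 where 33.0% of all tested genes were higher. The JJ012 control was then lower than 143B for 15 genes, where 36.5% of all tested genes were. The median of that comparison was -0.44, against 0.04 over all tested genes. The difference between lines under TPM was an alternative chosen after seeing the data. It was higher in JJ012 for 13 genes and lower for 7, where 38.0% and 12.3% of all genes tested in both were. With a threshold of 1, 5 genes were higher and 6 lower in JJ012, where 7.86% and 6.88% of all tested genes were. In 143B, 0 were higher and 1 was lower, where 1.71% and 2.74% of all were. The control comparison had 6 higher and 5 lower, where 28.7% and 18.5% of all were. The median of the control comparison was -0.33 with DESeq2 size factors and -0.39 with TMM, against -0.002 and -0.064 over all tested genes. It was -0.34 when centred on the median gene and -0.35 without the length trend, against 0.0 over all tested genes in each. In the reported setting the medians were -0.06 and 0.29. Without the length trend 16 genes were lower, where 32.7% of all tested genes were. With TMM, ENO2 (-0.54) and PFKL (-0.57) lay within the threshold in JJ012 and MPC1 was higher. The cause of these shifts was not tested. No paired analysis was possible because there was 1 library per condition and the labels give no replicate numbers. For the same reason no library could be left out. Depth limits PFKFB2, PDK2 and PDK4, with 29 to 336 counts per library, and BPGM.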

Other observations

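Other gene lists around the pathway were described in the same way, to be read against all tested genes, of which 19.6% were higher and 18.6% lower in JJ012 and 6.09% higher and 6.65% lower in 143B. Of 22 tested hypoxia-responsive genes outside glycolysis, 12 were lower in JJ012 and 2 were higher, with a median log2 fold change of -0.67. The largest were CA9 (carbonic anhydrase), from 166 to 14.5 FPKM, LOX (lysyl oxidase), from 603 to 80.2 FPKM, and PLOD2 (a collagen lysyl hydroxylase), from 143 to 45.8 FPKM. In 143B, 1 of 23 was lower, CA9 from 5.55 to 1.82 FPKM, and the median was -0.18. Of 14 regulators of the pathway in JJ012, 6 were higher and 3 lower. TXNIP, which restrains glucose uptake, was at 456 and 118 FPKM, MYC at 2.86 and 10.2 FPKM and EPAS1, a hypoxia-inducible factor subunit, at 9.11 and 27.8 FPKM. In 143B, 0 of 12 regulators passed the threshold.

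Of 17 tricarboxylic acid cycle genes in JJ012, 3 were higher and 1 was lower with a median of 0.10, and IDH3A (2.97 and 8.17 FPKM), CS (14.8 and 30.0 FPKM) and OGDH (16.5 and 28.4 FPKM) were the largest. PDP2, a further pyruvate dehydrogenase phosphatase, was at 3.74 and 12.9 FPKM. PDPR, a regulatory subunit of pyruvate dehydrogenase phosphatase, was at 15.7 and 24.7 FPKM. Of 10 tested genes of a further list around glycolysis in JJ012, 2 were higher, HKDC1 (2.50 and 6.57 FPKM) and PGAM5 (8.95 and 17.4 FPKM). In that list 1 was lower, BSG (284 and 172 FPKM), the chaperone of the lactate transporters. Of 10 other transporters, 1 was higher and 2 were lower, including SLC2A5, the fructose transporter (7.62 and 3.24 FPKM). In the pentose phosphate pathway, RPIA (4.48 and 8.20 FPKM) and RPE (log2 fold change 0.58) were higher and TALDO1 lower (32.7 and 20.4 FPKM) in JJ012, and in 143B PGD was higher (27.5 and 42.8 FPKM). Of 8 gluconeogenesis and glycogen genes in JJ012, GYS1 (31.2 and 18.0 FPKM) and G6PC3 (11.5 and 6.42 FPKM) were lower and PYGB (51.4 and 77.7 FPKM) was higher, and in 143B PC (8.28 and 4.83 FPKM) and GBE1 (37.9 and 24.9 FPKM) were lower.

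GAPDH is also commonly used as a reference gene. Among 8 other reference genes, a list chosen after seeing the GAPDH values, 1 was higher and 2 were lower in JJ012 and 0 passed the threshold in 143B, with medians of 0.09 and 0.01 on the log2 scale. The log2 fold change in JJ012 was 0.71 for ACTB, -0.64 for B2M, -0.75 for PPIA and 0.03 for HPRT1, against -1.64 for GAPDH.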
